A study of Mus musculus with 8 samples.

Results

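The genes described are the constitutive subunits of the proteasome and their assembly factors, measured in aged mouse microglia and in T cells sorted from the same organ, the brain. Members were taken by symbol alone: Psma, Psmb, Psmc, Psmd, Psme, Psmf or Psmg followed by a number, without the interferon-inducible genes Psmb8, Psmb9, Psmb10, Psme1 and Psme2. The rule found 45 of the 24924 genes in the table. They comprise 8 alpha and 8 beta genes of the 20S core, 6 ATPases and 11 other subunits of the 19S cap, 3 chaperones of the cap's base, 4 chaperones of the core, and the activators Psme3 and Psme4 with the inhibitor Psmf1. The remaining 2 symbols do not carry the same function: Psmc3ip encodes a factor of homologous chromosome pairing that was named for binding Psmc3, and Psme2b is a near-copy of the inducible activator gene Psme2. In all, 43 members had proteasome roles and 33 of them were subunits of the core or the cap.

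The proteasome degrades proteins that have been tagged with ubiquitin. Its 20S core is a barrel in which rings of alpha subunits gate the entrance and rings of beta subunits form the chamber, where Psmb5, Psmb6 and Psmb7 carry the active sites. The 19S cap binds the ubiquitin chain, removes it and uses its ring of ATPases to unfold the protein and feed it into the core. Immune cells can replace the constitutive active subunits by Psmb8, Psmb9 and Psmb10, which changes the peptides left for antigen presentation, and microglia, the macrophages of the brain, are among the cells that can do so.

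The samples formed 4 groups, all from C57BL/6 mice aged 20 to 22 months. Microglia and brain T cells were taken after 2 µg of the cytokine interleukin-5 (IL-5) on each of 2 days, or after phosphate-buffered saline (PBS). No allele or transgene is named. Each group held 2 libraries, 8 in all, and values below are given in the order replicate 1, replicate 2. The labels name surface markers as the basis of the sort without saying which, and do not say whether libraries came from separate mice, so p-values measure the spread between these samples, which may be technical.

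Libraries held 23536908 to 30423828 counts assigned to genes, and levels are scaled to that total (CPM), where 1 count is 0.0329 to 0.0425 CPM. A gene with 0 counts may lie as high as 0.0986 to 0.127 CPM, the limit set by 3 counts, which covers counting error only. The 12 microglia markers summed to 28863 to 40028 CPM in microglia libraries and 102 to 184 CPM in T cell libraries. The 11 T cell markers in the table summed to 4205 to 7264 CPM in T cells and 15.9 to 179 CPM in microglia, so the labelled cell types carried their markers. Transcripts of other cell types were present too. The 10 choroid plexus markers, led by transthyretin (Ttr), summed to 36033 to 43332 CPM in microglia PBS and 60242 to 64109 CPM in microglia IL-5. In T cells they summed to 59440 to 84557 CPM after PBS and 113862 to 116753 CPM after IL-5. The 5 oligodendrocyte markers summed to 212 to 776 CPM in microglia and 1542 to 2324 CPM in T cells. The 5 endothelial markers had 731 to 1222 and 846 to 1596 CPM. The 8 neutrophil markers summed to 13556 to 17535 CPM in microglia and 0.602 to 26.8 CPM in T cells. These marker levels move with both cell type and treatment, and their part in the proteasome values was not tested. Microglia IL-5 replicate 1 stood apart, with the fewest detected genes (13172, against 13490 to 15330 elsewhere). Its gene counts were the fewest as well (23536908, against 25737255 to 30423828). It also had 25.5% of its counted reads outside genes (15.2% to 19.8% elsewhere). In bulk RNA such as this, fewer cells of a type and less RNA per cell cannot be told apart.

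The start regions of 4 members are shown as examples, from core and cap genes whose levels are described below, and no relation between these sequences and the levels was tested. They are the stretches upstream of the RefSeq start (GRCm38.p6). For Psmb5 the 27 bases next to that start were cut off, since they lie inside the annotated gene. As printed, the stretches hold no annotated exon. Capitals mark matches to 3 motifs, on either strand: the antioxidant response element TGACNNNGC, read by Nfe2l1, the transcription factor that raises proteasome genes when proteasome activity falls, the CCAAT box, and CCGGAAG, the core of an ETS factor site. Psmb5 and Psmb6 encode constitutive active subunits of the core, and Psmd4, a ubiquitin receptor, and Psmd2, the large scaffold of the base, belong to the cap.
Psmb5, chr14:54618023-54618245, minus strand: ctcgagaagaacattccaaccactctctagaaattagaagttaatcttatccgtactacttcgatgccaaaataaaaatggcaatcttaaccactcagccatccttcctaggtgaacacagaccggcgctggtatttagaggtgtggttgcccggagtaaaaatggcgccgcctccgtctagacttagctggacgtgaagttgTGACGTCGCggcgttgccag
Psmb6, chr11:70525107-70525356, plus strand: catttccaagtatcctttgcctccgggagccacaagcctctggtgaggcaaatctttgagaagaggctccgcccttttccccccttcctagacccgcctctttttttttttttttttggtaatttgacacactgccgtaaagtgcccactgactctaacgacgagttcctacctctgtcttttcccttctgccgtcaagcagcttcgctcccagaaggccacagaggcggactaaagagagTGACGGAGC
Psmd4, chr3:95042615-95042864, minus strand: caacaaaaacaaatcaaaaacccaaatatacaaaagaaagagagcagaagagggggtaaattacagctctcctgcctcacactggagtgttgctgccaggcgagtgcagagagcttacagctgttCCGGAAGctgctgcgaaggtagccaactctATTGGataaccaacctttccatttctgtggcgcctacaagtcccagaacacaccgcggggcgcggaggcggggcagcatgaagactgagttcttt
Psmd2, chr16:20651402-20651651, plus strand: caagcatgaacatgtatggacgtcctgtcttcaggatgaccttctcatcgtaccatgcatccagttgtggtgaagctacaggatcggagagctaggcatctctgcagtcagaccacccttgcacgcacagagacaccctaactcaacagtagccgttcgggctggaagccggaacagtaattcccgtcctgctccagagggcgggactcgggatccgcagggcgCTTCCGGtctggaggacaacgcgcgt

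RefSeq windows of 250 upstream bases were at hand for 37 of the 45 members. The ETS word was in 8 of 14 cap genes (57.1%) and 1 of 12 core genes (8.33%), against 7.83% of all 27025 genes with a window. The CCAAT word was in 7 of 12 core genes (58.3%) and 4 of 14 cap genes (28.6%), against 37.5% of all genes. The antioxidant response element was in 5 of 37 members (13.5%), namely Psmb5, Psmb6, Psmc6, Psmd12 and Psmd9, against 11.5% of all genes. It was about as frequent in core genes (2 of 12, 16.7%) as in cap genes (2 of 14, 14.3%). Words could overlap, a match is no proof of a site, and these shares are a description of the sequences.

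Together the members took 0.430% to 0.509% of gene counts in microglia and 0.607% to 0.638% in T cells. Per kilobase of exon, the scale on which genes can be compared with each other, the highest members were core genes. Psmb2, a structural beta subunit, was highest in both populations, with a median of 318 CPM per kilobase in microglia (261 to 363 over 4 libraries) and 210 in T cells (201 to 265). Psmb6, the caspase-like active subunit, followed in microglia with 231 (214 to 295), a range that overlapped that of Psmb2, and had 144 (111 to 157) in T cells. Psma6, an alpha ring subunit, had 184 (179 to 187) in microglia and 180 (172 to 199) in T cells, and was the second in T cells, just below the range of Psmb2. With the length of the principal transcript in place of all exons, Psmb6 came first in microglia and Psma7 in T cells.

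By class, cap genes lay below both rings of the core in microglia. In T cells they lay below the beta ring, while the ATPases lay above the alpha ring. The median over the 6 ATPases was 18.5 CPM per kilobase in microglia and 72.7 in T cells. That over the 11 non-ATPases was 14.2 and 46.1. The 8 beta genes had 112 and 77.2, and the 8 alpha genes 48.8 and 64.4. With principal transcript length the T cell medians were 107 for the ATPases and 112 for the alpha genes. Within the cap, the ATPase Psmc5 was highest (105 in microglia, 137 in T cells). The lowest ATPases were Psmc2 in microglia (10.1) and Psmc6 in T cells (28.8). Among non-ATPases, Psmd8, a lid subunit, led in microglia (38.4) and Psmd4 in T cells (76.7), while the scaffold Psmd1 was lowest in microglia (2.89) and the lid subunit Psmd11 in T cells (18.95). Among the core's chaperones, Psmg4 was highest (91.9 and 65.3) and Psmg3 lowest (15.0 and 13.6). Of the cap's chaperones Psmd10, also known as gankyrin, was highest (37.1 and 53.2), while the lowest was Psmd5 in microglia (3.26) and Psmd9 in T cells (6.34). Psme3, the nuclear activator, had 32.7 and 57.0, and the large activator Psme4 had 1.07 and 3.45, the lowest of its class. Some of these extremes changed with principal transcript length. Psmd4 was then the highest cap gene and Psmc3 the highest ATPase in T cells. Psmc4 was the lowest ATPase in microglia, and Psmg1 the lowest core chaperone in both populations.

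Tissue-restricted members were low or at 0. Psmb11, the beta subunit of thymic cortex, had 0 counts in all 8 libraries. Psma8, the alpha subunit of testis, had 9.56 CPM in microglia PBS replicate 1, 6.68 in T cells PBS replicate 2 and 5.01 in T cells IL-5 replicate 2, at most 1 count in microglia IL-5 replicate 1, and 0 in the other 4. Psmc3ip had 0 and 0.184 CPM in microglia PBS, 0 and 8.63 in microglia IL-5, 15.8 and 4.93 in T cells PBS and 14.4 and 9.11 in T cells IL-5.

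**Figure D1:**
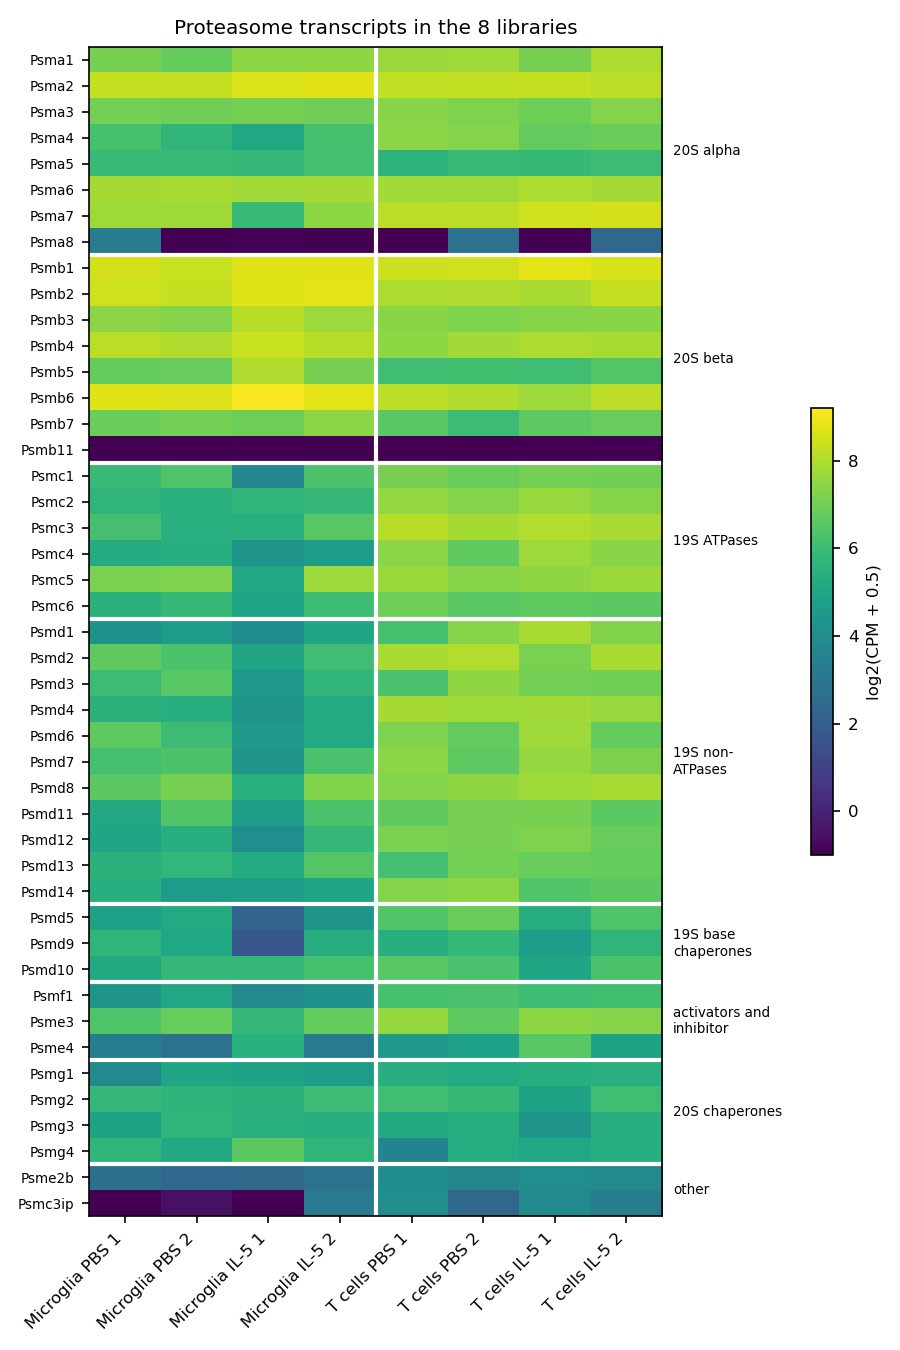
Level of each of the 45 members (rows, by role) in the 8 libraries (columns), as log2(CPM + 0.5) on the colour scale. Cap rows are darker in the 4 microglia columns than in the 4 T cell columns, most of all in microglia IL-5 replicate 1, while beta rows are as bright or brighter in microglia.

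T cells and microglia were set against each other within each treatment, in a fit of edgeR over all 8 libraries. The labels do not say whether microglia and T cell libraries of a treatment came from the same mice. The fit treated them as independent, and a pairing between them was not tested. The members did not differ as a block. In CPM the constitutive beta genes took a larger part of the RNA in microglia. The alpha ring and the cap took a larger part in T cells. The constitutive beta genes summed to 1695 to 2345 CPM in microglia and 1362 to 1583 in T cells. The alpha ring summed to 1083 to 1285 and 1335 to 1476, and neither overlapped. The beta and core sums leave out Psmb8, Psmb9 and Psmb10, which belong to the same ring. Together these inducible genes had 813 to 968 CPM in microglia and 1015 to 1553 in T cells. The beta sum is thus not that of the whole ring. Summed over genes, the 20S core had 2997 and 2799 CPM in microglia PBS, 3428 and 3392 in microglia IL-5, 2777 and 2759 in T cells PBS, and 2807 and 3059 in T cells IL-5. The 19S cap had 1063 and 1146 CPM in microglia PBS, 470 and 1233 in microglia IL-5, 2663 and 2659 in T cells PBS, and 2904 and 2630 in T cells IL-5. Cap sums of all 4 T cell libraries were thus above all 4 microglia libraries, and core sums overlapped. The ratio of core to cap, which does not depend on how libraries are scaled, was 2.82 and 2.44 in microglia PBS, 7.29 and 2.75 in microglia IL-5, 1.04 and 1.04 in T cells PBS and 0.966 and 1.16 in T cells IL-5. The microglia ratios lay above every T cell ratio, and did so without microglia IL-5 replicate 1 as well. The cap sums leave out Sem1 and Adrm1, cap genes outside the Psm symbols. Sem1 had 400 and 395 CPM in microglia PBS, 906 and 441 in microglia IL-5, and 251 to 339 in T cells. Adrm1 had 19.3 to 47.2 CPM in microglia and 51.1 to 68.7 in T cells.

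**Figure D2:**
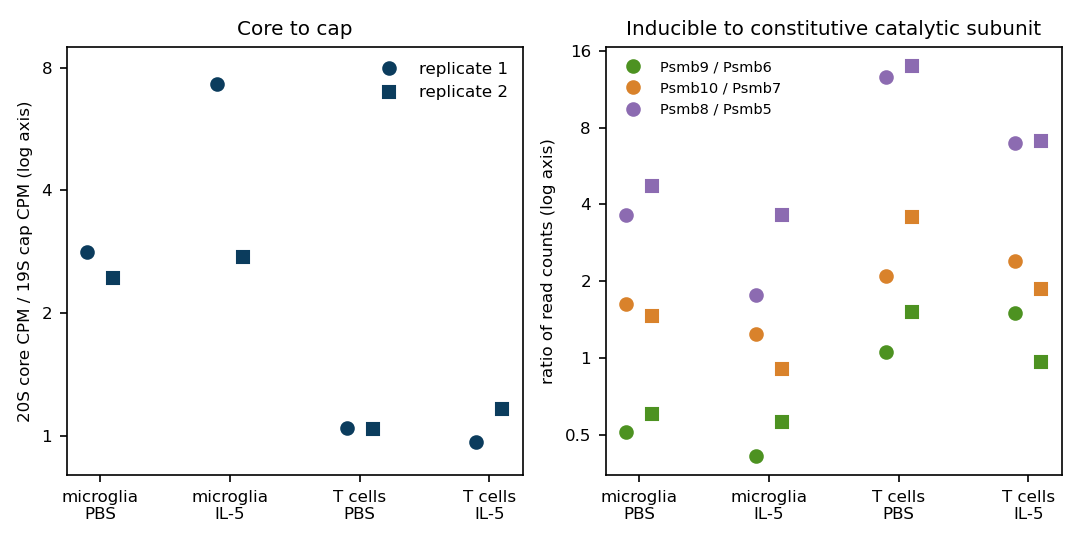
Left, ratio of summed 20S core CPM to summed 19S cap CPM, over the members only. Right, ratio of read counts of each inducible active subunit to the constitutive subunit it replaces. Both are on log axes, with 1 point per library. All 4 microglia libraries lie above 2.4 in the left panel, and the T cell libraries lie between 0.966 and 1.16.

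In PBS mice, 1 of 44 tested members passed the threshold, an adjusted p under 0.05 with edgeR, and it was higher in T cells. Over all 15397 genes tested, 2.57% were called higher and 4.6% lower, 7.18% in either direction. The member was Psmd4 (chr3:95032694-95042614, GRCm38), the cap's ubiquitin receptor, with 46.0 and 42.8 CPM in microglia PBS and 225 and 213 in T cells PBS. Its log2 fold change was 1.61 (SE 0.37, n = 2 libraries per group), or 3.04-fold, with an edgeR adjusted p of 0.0334. The call held without either microglia IL-5 library, and was lost without any of the other 6 libraries (edgeR adjusted p 0.0592 to 0.246). Leaving out microglia IL-5 replicate 1 gave 4 members called higher and 8 lower, and leaving out replicate 2 gave 4 higher and 9 lower. Neither library is part of the PBS contrast, but each shares its filter, scaling and spread, and the log2 fold change of Psmd4 was 1.53 without either.

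The signs of the fold changes in that comparison divided by role. All 7 tested beta genes had negative fold changes, with a median log2 of -1.14, and 13 of 15 tested core genes did (median -0.78), where 48% of all genes were negative. Of 17 cap genes, 14 had positive values (median 0.42), where 51.1% of all genes were positive. The median over all members was 0.05 and that over all genes 0.06. Scaled by library size only, the median of all genes moved to 0.75, and with it the core to -0.09, the beta ring to -0.44 and the cap to 1.11. Relative to the median of all genes, the core stood at -0.84 and the cap at 0.36 under either scaling, and the beta ring at -1.19. The alpha ring's median turned from -0.58 to 0.12 by library size only and to 0.14 with exon length adjusted. With an adjustment for exon length these distances were -0.31 for the core, -0.53 for the beta ring and 0.67 for the cap.

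The members called differed between settings. By library size only, 6 cap members were higher and 0 members lower, with 5.97% of all genes called higher and 2.44% lower: Psmc2, Psmc3, Psmc4, Psmd1, Psmd14 and Psmd4. With exon length adjusted, Psmc3 and Psmd4 were called higher and 0 lower, against 1.81% and 3.33% of all genes. DESeq2 called 5 members higher (Psmc3, Psmc3ip, Psmd1, Psmd14 and Psmd4) and 5 lower (Psmb2, Psmb4, Psmb5, Psmb6 and Psmb7), against 7.96% and 10.5% of all genes. It differs from the edgeR fit in the test as well as the scaling, and edgeR with RLE factors called Psmd4 alone (adjusted p 0.0340). Psmd14, the deubiquitylase of the cap, had 42.7 and 23.9 CPM in microglia PBS and 157 and 174 in T cells PBS, a log2 fold change of 1.61 (SE 0.44) with an edgeR adjusted p of 0.06005. By library size only its edgeR adjusted p was 0.0184.

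On the CPM scale 28 of 44 members had both T cell PBS libraries above both microglia PBS libraries, and 8 had both below, against 42.2% and 19.7% of all genes. Those above included 16 of the 17 cap genes, and those below 5 of the 7 tested beta genes.

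The constitutive active subunits of the core were lower in T cells. Psmb6 had 423 and 401 CPM in microglia PBS and 552 and 441 in microglia IL-5, against 293 and 254 in T cells PBS and 208 and 287 in T cells IL-5. Psmb5, the chymotrypsin-like subunit, had 112 and 113, then 252 and 138 CPM in microglia, and 66.4 and 67.8, then 66.4 and 89.4 in T cells. For Psmb7, the trypsin-like subunit, the values were 116 and 133, then 122 and 173 in microglia, and 96.6 and 63.4, then 101 and 113 in T cells. For all 3 subunits the highest T cell library was below the lowest microglia library. In PBS mice their log2 fold changes were -1.29 (SE 0.35) for Psmb6, -1.44 (SE 0.44) for Psmb5 and -1.34 (SE 0.36) for Psmb7, with edgeR adjusted p of 0.0570, 0.0866 and 0.0570, outside the threshold. By library size only they were -0.59, -0.74 and -0.64.

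**Figure D3:**
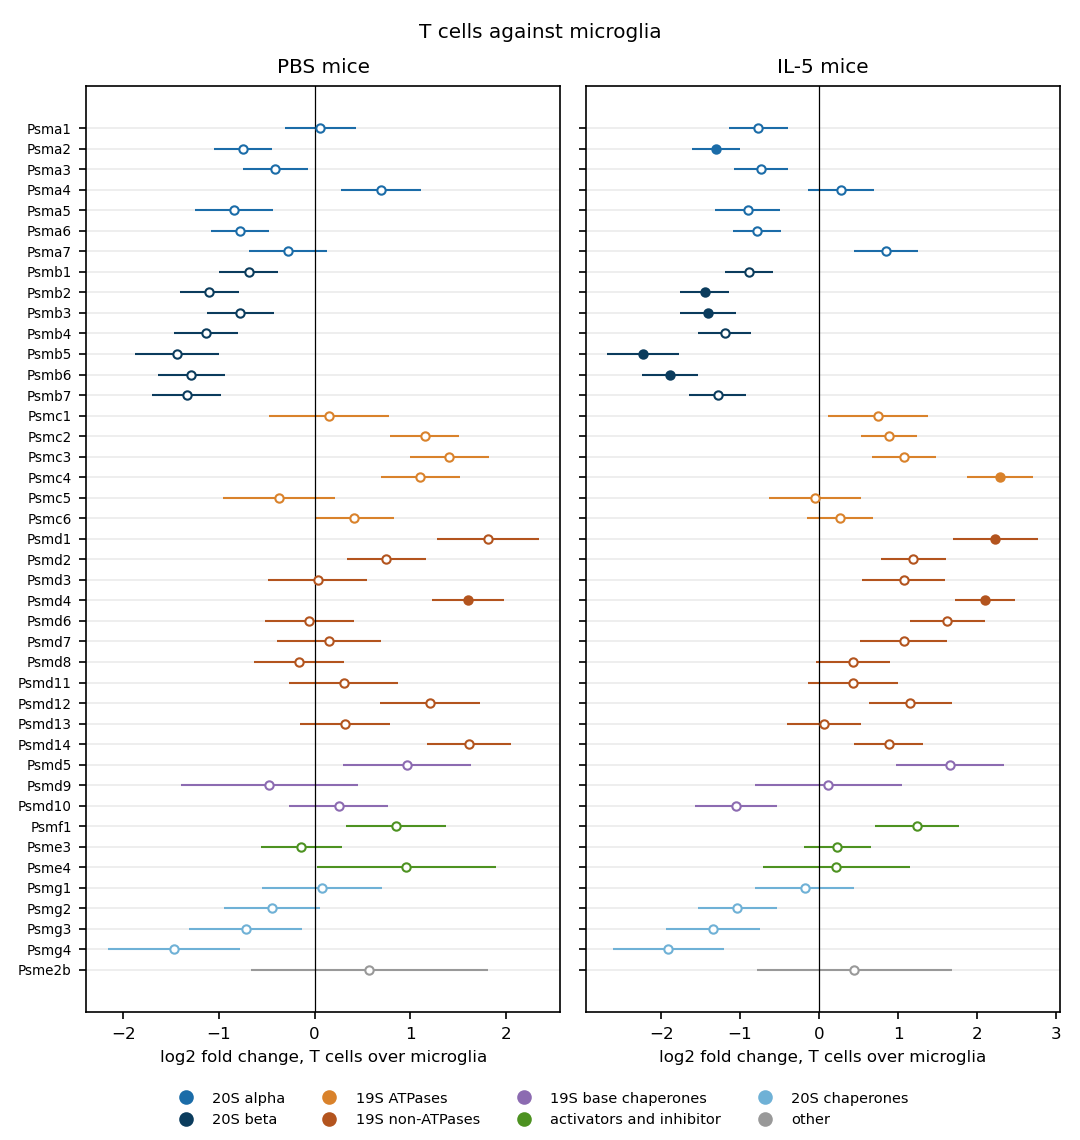
Log2 fold change of T cells over microglia for each member (rows, coloured by role) in PBS mice (left) and IL-5 mice (right). Bars are 1 SE on separately scaled axes, and filled points passed the edgeR threshold. Psma8 and Psmc3ip are left out because some libraries were at or near 0 counts. Beta genes all lie left of 0 and most cap genes right of it, with 1 filled point in the left panel and 8 in the right.

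In IL-5 mice 8 members passed. T cells had 3 members higher, Psmc4, Psmd1 and Psmd4, and 5 lower, Psma2, Psmb2, Psmb3, Psmb5 and Psmb6, of 44 tested, against 2.49% higher and 5.73% lower over all genes. All 3 that were higher belong to the cap and all 5 that were lower to the core. Psmc4, a cap ATPase, had 18.9 and 24.5 CPM in microglia IL-5 and 210 and 167 in T cells IL-5, and was 4.90-fold higher (log2 2.29, SE 0.42, edgeR adjusted p = 0.0132). Psmd4 was 4.31-fold higher (log2 2.11, SE 0.38, edgeR adjusted p = 0.0120), with 18.7 and 37.2 against 217 and 199 CPM. Psmd1, the scaffold of the base, was 4.70-fold higher (log2 2.23, SE 0.54, edgeR adjusted p = 0.0361), with 15.2 and 32.6 against 231 and 155 CPM.

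The lower members were led by Psmb5, 4.69-fold lower in T cells (log2 -2.23, SE 0.45, edgeR adjusted p = 0.0193), and Psmb6, 3.69-fold lower (log2 -1.88, SE 0.35, edgeR adjusted p = 0.0140). Psmb2 (log2 -1.45, SE 0.31), Psmb3 (log2 -1.41, SE 0.35) and the alpha subunit Psma2 (log2 -1.30, SE 0.30) had edgeR adjusted p of 0.0245, 0.0414 and 0.0314. Psmb2 had 413 and 437 CPM in microglia IL-5 and 242 and 319 in T cells IL-5, Psmb3 had 271 and 206 against 164 and 166, and Psma2 had 404 and 425 against 317 and 286, each without overlap. None of these 5 was called when libraries were scaled by size only (edgeR adjusted p 0.0834 to 0.330) or adjusted for exon length (0.0644 to 0.647). By library size only the log2 values were -1.32 for Psmb5, -1.01 for Psmb6, -0.60 for Psmb2, -0.53 for Psmb3 and -0.46 for Psma2. With exon length adjusted they were -0.79, -1.60, -0.39, -1.40 and -1.69. Psmc4 and Psmd4 were called under both of these settings.

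All 7 tested beta genes were negative, as were 45.6% of all genes, and 16 of 17 cap genes were positive, as were 53.8%. The medians were -1.41 for the beta ring and 1.07 for the cap, with 0.19 over all genes. By library size only they became -0.53 and 1.81, with 1.01 over all genes. Relative to all genes the cap stood at 0.88 and 0.80 under these scalings, and the beta ring at -1.60 and -1.54. With library size only, 9 members were higher and 0 lower, against 6.22% and 2.18% of all genes. Both T cell IL-5 libraries were above both microglia IL-5 libraries in CPM for 24 of 44 members, and below for 8, against 43.8% and 14.5% of all genes.

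Leaving out libraries changed the calls. Without T cells IL-5 replicate 1, which left that group with 1 library, 0 members were called (edgeR adjusted p 0.0752 to 0.219 for the 8), while the log2 fold changes stayed near their size (2.01 for Psmd4, 2.09 for Psmc4 and -1.69 for Psmb6), and without replicate 2 of that group Psmc4 and Psmd4 were. Without microglia IL-5 replicate 1, Psmb3 (0.0739) and Psmd1 (0.121) were lost, and the cap's median was 0.64. Without any of the 4 PBS libraries Psma2 and Psmb3 were lost (0.0607 to 0.0663). Without microglia IL-5 replicate 2, 10 members were higher and 9 lower, and the median of the cap was 1.503.

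Core transcripts are shorter than cap transcripts: the median length of the principal transcript was 1165 bases over the tested core genes and 1636 over the cap genes. The adjustment for exon length moved the core's median in PBS mice from -0.78 to -0.17 and left it at -0.90 in IL-5 mice, and the cap's from 0.42 to 0.81 and from 1.07 to 0.91.

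Other cap genes spread as follows over the 4 libraries of each population, both treatments included. Among the ATPases, Psmc2 had 44.9 to 55.5 CPM in microglia and 158 to 195 in T cells, Psmc3 44.0 to 92.5 and 228 to 278, Psmc1 13.1 to 83.8 and 118 to 137, and Psmc6 32.4 to 64.5 and 97.2 to 123. None of these 4 overlapped, whereas Psmc5 did, with 35.0 to 206 and 164 to 203. In the lid and base, Psmd12 had 15.7 to 55.0 CPM in microglia and 114 to 150 in T cells, Psmd7 19.4 to 81.4 and 100.01 to 191, and Psmd11 25.4 to 86.6 and 97.7 to 139, all without overlap. Psmd3 and Psmd13 overlapped, with 21.4 to 92.2 and 76.1 to 180 CPM for the first and 37.9 to 87.5 and 70.3 to 133 for the second.

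The alpha ring was mixed. Psma7 had 58.5 to 214 CPM in microglia and 279 to 371 in T cells, and Psma4 33.9 to 75.0 and 107 to 174, both higher in T cells without overlap on the CPM scale. Psma6 was the most even, with 221 to 231 and 213 to 245 CPM, and Psma3 had 126 to 133 and 124 to 168. Psma1 and Psma5 overlapped as well, with 110 to 179 and 136 to 244 CPM, and 54.7 to 73.0 and 48.2 to 64.2.

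Accessory members lay on both sides. Psmf1, the inhibitor, had 18.9 and 33.3, then 13.6 and 18.3 CPM in microglia and 75.1 and 76.9, then 65.4 and 68.1 in T cells, without overlap, with log2 fold changes of 0.85 (SE 0.52) and 1.24 (SE 0.53) in PBS and IL-5 mice. These missed the edgeR threshold (adjusted p 0.373 and 0.208), except in IL-5 mice by library size only (0.0482). Psme3 had 82.8 and 114, then 55.5 and 110 CPM in microglia, and 189 and 100.5, then 174 and 162 in T cells, which overlapped. The core's chaperones had negative medians, -0.58 in PBS and -1.18 in IL-5 mice, with 0 of 4 called, and by library size only the first became 0.11. Psmg1, the partner of Psmg2 in alpha ring assembly, had 13.7 and 32.4, then 28.8 and 24.7 CPM in microglia and 41.7 and 36.9, then 42.0 and 44.1 in T cells. For Psmg1 the fitted log2 values were 0.07 (SE 0.63) and -0.18 (SE 0.63), and by library size only 0.77 and 0.69.

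The balance between constitutive and inducible active subunits was read as a ratio of counts within a library, a measure added after the data had been seen. Psmb9 replaces Psmb6, Psmb10 replaces Psmb7 and Psmb8 replaces Psmb5 when the immunoproteasome is built. The ratio of Psmb9 to Psmb6 was 0.514 and 0.602 in microglia PBS, 0.414 and 0.561 in microglia IL-5, 1.06 and 1.51 in T cells PBS and 1.497 and 0.962 in T cells IL-5. The ratio of Psmb8 to Psmb5 was 3.65 and 4.73, then 1.77 and 3.64 in microglia, and 12.6 and 13.9, then 6.96 and 7.10 in T cells. For Psmb10 to Psmb7 it was 1.62 and 1.46, then 1.24 and 0.907 in microglia, and 2.10 and 3.57, then 2.39 and 1.86 in T cells. In each of the 3 pairs every T cell library was above every microglia library. Per exon length the ratio of Psmb9 to Psmb6 was 0.212 to 0.308 in microglia and 0.492 to 0.773 in T cells. That of Psmb8 to Psmb5 was 0.471 to 1.26 and 1.85 to 3.70, and that of Psmb10 to Psmb7 1.82 to 3.25 and 3.74 to 7.16. The count ratios thus do not show which subunit of a pair had the higher level per length.

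Pooled over treatments, T cells exceeded microglia 2.38-fold for Psmb9 to Psmb6, 1.88-fold for Psmb10 to Psmb7 and 2.97-fold for Psmb8 to Psmb5. No test is given, since the pairs were chosen with the values known and the treatments are pooled. Within T cells the mean log2 ratio of Psmb8 to Psmb5 was 3.73 after PBS and 2.81 after IL-5. On the log2 scale the differences were 1.25, 0.91 and 1.57, with SDs of 0.23 to 0.61 within a population. Leaving out any library gave differences of 1.14 to 1.37, 0.72 to 1.03 and 1.28 to 1.75. The ratios compare transcripts, differ with gene length, and say nothing of how many proteasomes hold which subunit. In PBS mice Psmb8 had 837 and 943 CPM in T cells against 407 and 532 in microglia, Psmb9 310 and 384 against 217 and 241, and Psmb10 203 and 226 against 188 and 195. In the edgeR fit none of the 5 inducible genes was called between the populations, with log2 values of -0.53 to 0.23 in PBS mice and adjusted p of 0.350 or more. Psme2, of the inducible activator, had 245 and 236, then 206 and 259 CPM in microglia and 305 and 340, then 242 and 237 in T cells.

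IL-5 was compared with PBS within microglia. The edgeR test called 0 of 13764 genes in either direction (percent called 0). At an unadjusted p under 0.05 there were 617 (4.48%, 1.79% higher and 2.7% lower), and DESeq2 called 18 higher and 49 lower (0.487%, 0.131% and 0.356%). Of the 42 members tested 0 were called by either tool, and 1, Psmd6, had an unadjusted p under 0.05. The median log2 fold change of the members was 0.20, against -0.02 over all genes. All 7 tested beta genes had values above 0, with a median of 0.46, and 12 of 17 cap genes below 0, with a median of -0.18, against 49% above and 51% below over all genes. Both IL-5 libraries were above both PBS libraries for 8 members and below for 8, against 15% and 23.1% of all genes, and 5 of the 8 above were beta genes.

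The member with the largest value in favour of IL-5 was Psme4, with 9.33 and 6.59 CPM after PBS and 45.8 and 8.63 after IL-5, a log2 fold change of 2.06 (SE 1.01, edgeR adjusted p = 0.964) that rested on replicate 1. Psmb5 had 112 and 113 CPM after PBS and 252 and 138 after IL-5 (log2 1.02, SE 0.50, edgeR adjusted p = 0.964). Psma1, an alpha subunit, had 136 and 110 CPM after PBS and 178 and 179 after IL-5 (log2 0.70, SE 0.39), without overlap. Psmg4, a chaperone of the core, had 52.0 and 35.2, then 99.8 and 50.01 CPM. On the other side, Psmd6, a lid subunit, had 100.5 and 63.7 CPM after PBS and 22.3 and 36.9 after IL-5 (log2 -1.35, SE 0.48, edgeR adjusted p = 0.964). Psmd3, also of the lid, had 62.8 and 92.2, then 21.4 and 51.8 CPM, and Psmd2 had 103 and 79.4, then 30.3 and 66.6 CPM. The base chaperone Psmd5 had 28.1 and 37.2, then 4.33 and 19.02 CPM. IL-5 libraries were lower without overlap for Psmd6, Psmd3, Psmd2 and Psmd5, and in each the lower of the IL-5 libraries was replicate 1.

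**Figure D4:**
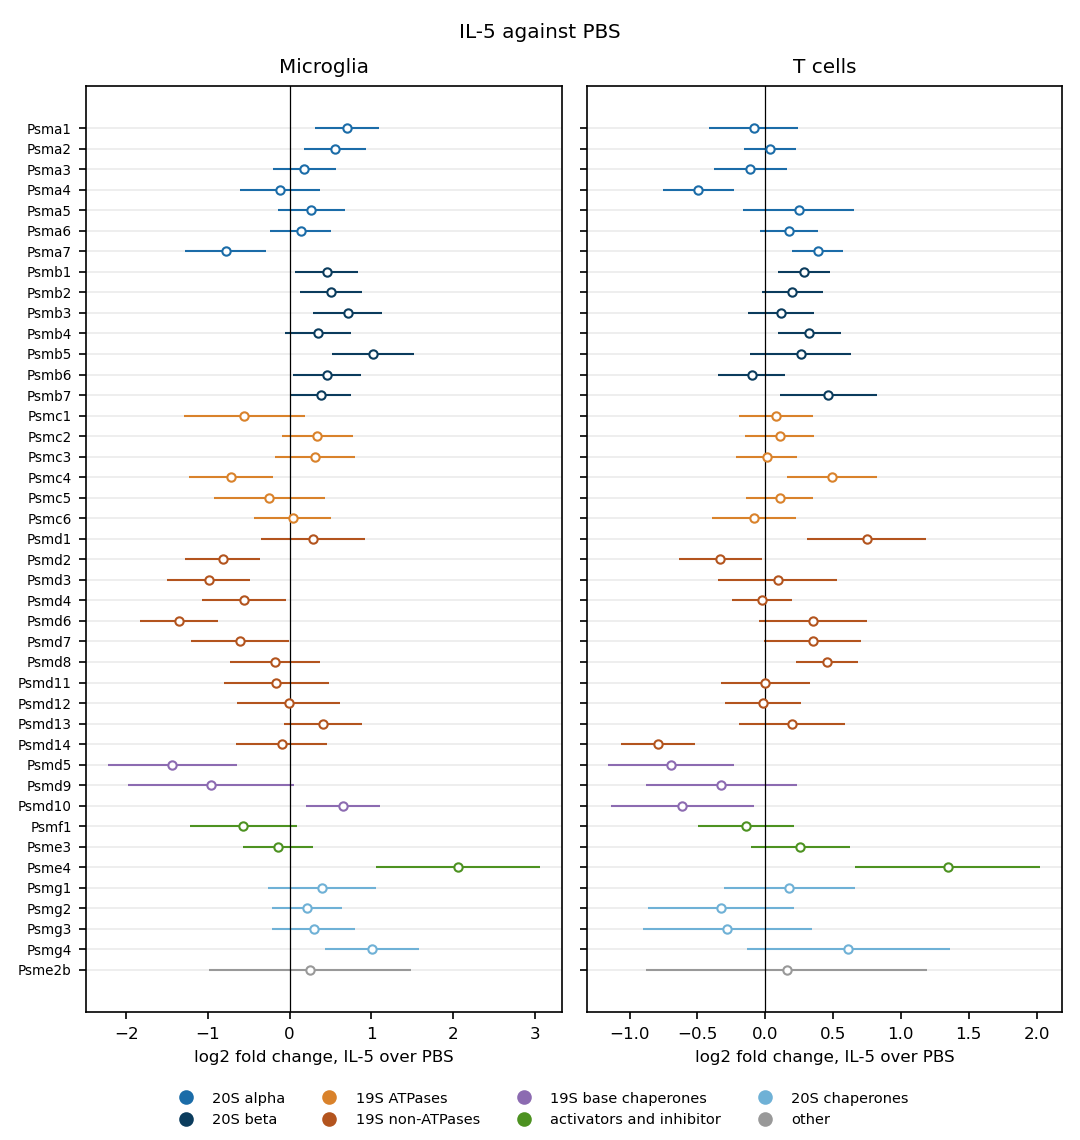
Log2 fold change of IL-5 over PBS for each member (rows, coloured by role) in microglia (left) and T cells (right). Bars are 1 SE on separately scaled axes. Psma8 and Psmc3ip are left out because some libraries were at or near 0 counts. No point is filled, since 0 members passed the edgeR threshold in either cell type, and Psme4 lies farthest to the right in both.

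Replicates of microglia IL-5 differed in the members in a way that mostly followed their role. All 17 cap genes were lower in replicate 1 than in replicate 2, by a median of 1.12 on the log2(CPM + 0.5) scale, while the 15 tested core genes differed by a median size of 0.21. In microglia PBS the median size of the replicate difference was 0.38 for the cap and 0.12 for the core. Set against the other 3 microglia libraries, replicate 1 had 15 of 17 cap genes (88.2%) below all of them, against 38.5% of all genes. It had 0 of 7 tested beta genes below them and 4 of 7 above them. The cap's median difference was -1.27, the core's 0.15 and that of all genes -0.41. Psmc5 had 35.0 CPM in it, against 142 to 206 in the other 3, Psmc1 13.1 against 57.5 to 83.8, and Psmd9, a base chaperone, 2.93 against 33.7 to 50.3. The alpha subunit Psma7, with 58.5 CPM against 178 to 214, was low as well. Sem1, a cap subunit outside the members, was high, with 906 CPM in replicate 1 against 395 to 441 in the other 3. Adrm1, also of the cap and outside the members, was low, with 19.3 against 28.8 to 47.2. The division was thus not complete.

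Without microglia IL-5 replicate 2, so that replicate 1 alone stood for IL-5 and was assumed to vary like the other libraries, edgeR called 532 genes higher and 723 lower. Members called then were 3 higher (Psmb3, Psmb5 with log2 1.51, and Psme4 with log2 2.86) and 4 lower (Psma7, Psmc1, Psmc5 and Psmd9). Without replicate 1, 0 members were called, and the median of the cap was 0.20 in place of -0.18. The Spearman correlation of that library's difference from the other 3 with exon length was 0.04 across 15397 genes. It was -0.25 over the 44 tested members, 0.45 within the cap, 0.89 within the 6 ATPases and -0.64 within the 7 tested beta genes. These are descriptions across genes, which are not independent replicates, and the part of length in the values was not tested. The share of reads outside genes was highest in that library, and its part in the values was not tested.

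**Figure D5:**
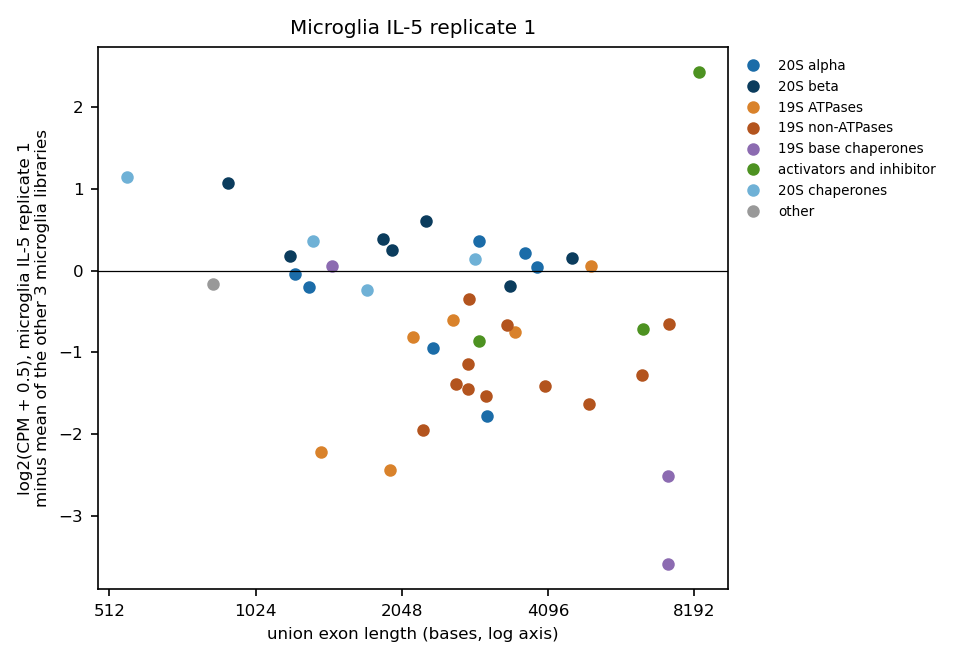
Difference of microglia IL-5 replicate 1 from the mean of the other 3 microglia libraries in log2(CPM + 0.5), against union exon length on a log axis. Each point is a tested member, coloured by role, and the tested members Psma8 and Psmc3ip are left out. Cap genes lie below 0 except Psmc2, while most beta genes and Psmg4 and Psme4 lie above it.

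In T cells, IL-5 against PBS gave 0 of 13897 genes called by edgeR in either direction (percent called 0). At an unadjusted p under 0.05 there were 600 (4.32%, 2.55% higher and 1.76% lower), and DESeq2 called 403 higher (2.9%) and 255 lower (1.83%). Of 44 members 0 were called by edgeR, 1 had an unadjusted p under 0.05, and 1, the same gene, was lower by DESeq2. The median of the members was 0.11, of the core 0.17 and of the cap 0.09, against -0.01 over all genes, of which 49.2% were above 0 and 50.8% below. The cap's median was below 0 when T cells IL-5 replicate 1 (-0.015) or T cells PBS replicate 2 (-0.011) was left out, and was 0.17 without either of the other libraries, while the core's ranged from 0.11 to 0.26. That 1 member was Psmd14, which had 157 and 174 CPM after PBS and 85.3 and 99.6 after IL-5, without overlap. For Psmd14 the log2 fold change was -0.79 (SE 0.27), with an edgeR adjusted p of 1.00 and a DESeq2 adjusted p of 0.00695. Groups did not overlap for 12 members, 8 higher and 4 lower, against 16.6% and 19% of all genes.

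Psme4 again had the largest value, with 21.7 and 28.5 CPM after PBS and 93.5 and 29.4 after IL-5, a log2 fold change of 1.35 (SE 0.68, edgeR adjusted p = 1.00). Its groups did not overlap, but the difference came to 0.26 without T cells IL-5 replicate 1, as it came to 0.09 in microglia without microglia IL-5 replicate 1. Psma7 had 279 and 291, then 349 and 371 CPM (log2 0.39, SE 0.19), and Psmd8 157 and 183, then 214 and 235 CPM (log2 0.45, SE 0.23). Both were higher without overlap, at an edgeR adjusted p of 1.00. Psmd1 had 74.5 and 164, then 231 and 155 CPM (log2 0.75, SE 0.44), which overlapped. Of the members with negative values, Psma4 had 174 and 157, then 107 and 120 CPM (log2 -0.49, SE 0.26), without overlap. Psmd5 had 86.3 and 121, then 40.8 and 83.3 CPM, and Psmd10 97.2 and 77.2, then 31.7 and 79.0 CPM, each lowest in T cells IL-5 replicate 1.

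The difference of the IL-5 responses, T cells minus microglia, was tested in the fit of all 8 libraries. It was called for 0 of 15397 genes by edgeR (percent called 0), and with exon length adjusted for 0.0195% (0.013% higher, 0.00649% lower). At an unadjusted p under 0.05 there were 798 (5.18%, 3.22% higher and 1.96% lower), and DESeq2 called 132 higher and 55 lower (1.21%, 0.857% and 0.357%). For the members it was called for 0 of 44 by either tool, with a median of -0.09 against 0.03 over all genes. The core's median was -0.33 and the cap's 0.42, and became -0.060 and -0.10 once microglia IL-5 replicate 1 was left out. The members with the smallest p were Psmd6 (log2 1.68, SE 0.66), Psmc4 (1.18, SE 0.57), Psma7 (1.13, SE 0.58) and Psmd3 (1.04, SE 0.73) on the side of T cells, each with an edgeR adjusted p of 0.904 or more. On the side of microglia they were Psmd10 (-1.31, SE 0.73), Psma1 (-0.83, SE 0.53), Psma2 (-0.56, SE 0.42) and Psmc3ip (-5.29, SE 3.73), of which the last had 5 counts or fewer in 3 libraries. Psma7 passed (edgeR adjusted p 0.0465) when microglia IL-5 replicate 2 was left out.

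Around the proteasome, 54 genes of 5 lists were followed: partners of the proteasome, the 5 inducible genes, the Nfe2l1 pathway, the unfoldase p97 with its cofactors, and ubiquitin with its activating enzymes. Of the 52 tested in the fit of all libraries, 3 were called higher and 5 lower in T cells of PBS mice, and 2 higher and 7 lower in those of IL-5 mice, beside the shares of all genes given before. Pomp, the chaperone that matures the core, was lower in T cells in both: 388 and 426, then 633 and 488 CPM in microglia against 221 and 216, then 218 and 232 in T cells. The log2 values of Pomp were -1.59 (SE 0.34, edgeR adjusted p = 0.0240) and -2.19 (SE 0.35, edgeR adjusted p = 0.0073), and the first was not called by library size only (0.103). Akirin2, which carries proteasomes into the nucleus, was lower at -2.55 (edgeR adjusted p = 0.0354) and -3.78 (0.0089), the first again not called by library size only (0.0896). Mafg, a partner of Nfe2l1 on DNA, was lower at -2.74 (edgeR adjusted p = 0.0240) and -2.50 (0.0314), and by library size only in neither (0.0856 and 0.126). Sem1, a small subunit of the cap outside the Psm symbols, had 906 and 441 CPM in microglia IL-5 and 277 and 339 in T cells IL-5, and was lower there (log2 -2.04, SE 0.45, edgeR adjusted p = 0.0267), but not by library size only (0.110). Derl1 and Derl2, channels that pass misfolded proteins out of the endoplasmic reticulum, were lower in both, Derl2 at -3.16 and -3.31 (edgeR adjusted p 0.0054 and 0.0053), with 207 to 455 CPM in microglia and 43.2 to 75.0 in T cells.

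Uba1, the main ubiquitin-activating enzyme, was higher in T cells in both treatments, with log2 values of 2.29 (SE 0.46, edgeR adjusted p = 0.0192) and 2.90 (SE 0.47, edgeR adjusted p = 0.0078). It had 10.2 to 44.8 CPM in microglia and 206 to 317 in T cells. Vcp, the p97 unfoldase that feeds the proteasome, was higher in PBS mice (log2 1.80, SE 0.39, edgeR adjusted p = 0.0250), with 33.2 to 35.8 against 189 to 201 CPM. Nfe2l1 itself had 87.7 and 84.2, then 51.0 and 38.7 CPM in microglia and 42.9 and 123, then 114 and 141 in T cells, and Adrm1, a ubiquitin receptor of the cap, had 28.8 and 47.2, then 19.3 and 35.4 against 68.7 and 51.1, then 60.5 and 51.9. Neither was called in any comparison. Within either population, IL-5 against PBS gave 0 calls among these genes by edgeR. Psme1, an inducible activator subunit, had 225 to 291 CPM in 3 microglia libraries but 67.8 in replicate 1 of microglia IL-5, and Psmb8 in T cells had 837 and 943 CPM after PBS and 462 and 634 after IL-5 (log2 -0.65, SE 0.20, edgeR adjusted p = 1.00, DESeq2 adjusted p = 0.0119).

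Over the 8 libraries, the genes outside the list whose log2 level was most like the mean of the 33 core and cap genes were Zfp874b (Pearson r = 0.986), Usp14 (0.975), Atp5c1 (0.964), Arhgef5 (0.947) and Fbxo10 (0.938). Usp14 is a deubiquitylase that binds the cap. These are the highest of many correlations, over libraries that share depth and cell type, and are given as a description. The mean spanned only 6.32 to 6.82 and includes Psma8. It was 6.77 to 6.82 in microglia PBS replicate 1, T cells PBS replicate 2 and T cells IL-5 replicate 2, where Psma8 had 5.01 to 9.56 CPM. In the other libraries, where Psma8 had at most 1 count, it was 6.32 to 6.70. The part of Psma8 in these correlations was not tested.

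Counting can mix some of these genes with others. Of the members, 12 share exon bases with another gene, and 9 of these with a gene on the opposite strand, such as Psmc3 with Slc39a13, Psmb7 with Nek6, Psmd1 with Htr2b and Psmd13 with Sirt3. The strand setting of the counts is not given in the sources used here, so reads of such partners cannot be told apart. Reads of Psme2b and Psme2 may have been split between near-identical copies, and the 4 annotated pseudogenes Psmb5-ps, Psmb6-ps, Psmb6-ps2 and Psmb7-ps2 were not analysed here.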

How the data were processed

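Sorted microglia and brain T cells were sequenced as single-end reads in 8 libraries. The authors deposited raw counts of reads per gene, whole numbers with no scaling. Tools listed in the submitters' processing notes are STAR 2.5.3a, bcl2fastq 2.20.0.422, Cufflinks 2.0, FastQC 1.0.0 and DESeq2 1.1, and the builds mm10 and GRCm38. The counting tool and strand setting are not given in the sources used here. Of 24953 entries, 2 summary entries (15.2% to 25.5% of a column outside genes, 1.39% to 1.77% ambiguous) and 27 genes with unreadable cells were left out. GENCODE M21 gave lengths and positions, and all 45 members matched it.

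Genes passing filterByExpr (minimum count 10) were tested with the two-sided quasi-likelihood test of edgeR 4.0.16 in R 4.3.3, TMM scaling and Benjamini-Hochberg adjustment over all genes tested, at a threshold of 0.05. SEs were derived as the log2 fold change divided by the root of F. IL-5 and PBS were compared within the 4 libraries of a cell type, and the other contrasts in a fit of all 8. Fits were tested on simulated data. Alternatives were DESeq2 1.42.0, RLE factors, library size only, no filter, 5 CPM in 2 libraries, a replicate block, exon length, all 8 libraries or only those of 1 treatment, and each library left out. Library totals before the filter, principal transcript length and the ratios of subunits were added after seeing the data. The labels do not say what the replicate numbers mark, so numbers were not used as pairs. Same-numbered libraries of a cell type deviated with correlations of 0.0113 and 0.0112, which cannot exclude pairing with 2 libraries per group. The members and lists were chosen with earlier results of these data known. Named are members past the threshold or, where none passed, the 4 of lowest p on each side, the extremes of each role per length, and a fixed set of active, tissue-restricted and accessory members. Of the other pathway genes, up to 6 called ones and a fixed 8 are named. Figures used Python 3.11.15 and matplotlib 3.10.9.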

Additional observations from a re-analysis of the deposited data

How the results depend on the processing

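Calls depended on the setting, and for the changes below the cause was not tested unless fewer libraries entered. DESeq2 called 18 genes higher and 49 lower in microglia after IL-5, 403 and 255 in T cells (1 member lower), and 132 and 55 for the difference of responses. For T cells against microglia it called 1226 and 1623 genes in PBS mice (5 members higher, 5 lower, median of the members -0.011) and 1154 and 1717 in IL-5 mice (9 members lower). Scaled by library size only, PBS mice gave 919 and 376 genes, 6 members higher and a median of 0.74, and IL-5 mice 958 and 336 genes, 9 members higher, 0 lower and a median of 1.06. Without the filter on low counts, T cells after IL-5 had 2 genes higher, the difference of responses 27 and 4, PBS mice 641 and 1081 (3 members higher, 3 lower, median -0.026) and IL-5 mice 607 higher (8 members lower). Adjusted for exon length, the difference of responses gave 2 and 1, PBS mice 2 members higher and a median of 0.41, and IL-5 mice 211 genes higher and 0 members lower. In PBS mice the median was -0.011 with RLE factors, -0.057 with the filter at 5 CPM (3 members lower) and -0.030 with library totals before the filter (1 member lower). One fit of all 8 libraries gave 2 genes higher in T cells after IL-5. A fit of the 4 libraries of 1 treatment gave 1072 genes lower and 5 members lower in PBS mice, and 45 and 172 genes with 0 members higher and 0 lower in IL-5 mice.

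With the replicate block, PBS mice gave 167 and 400 genes, 0 members higher and a median of 0.25, and IL-5 mice 183 and 520 genes, 1 member higher and 2 lower. The labels do not say what the numbers mark, so whether the block is a pairing is unknown. The correlations of 0.0113 and 0.0112 cannot decide it with 2 libraries per group.

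Leaving out each library gave ranges. In microglia after IL-5 they were 0 to 532 genes higher, 0 to 723 lower, 0 to 3 members higher and 0 to 4 lower. In T cells after IL-5 they were 0 to 1 genes higher and a median of -0.0066 to 0.15. For the difference of responses they were 0 to 178 and 0 to 54 genes and 0 to 1 members higher, and Psmc3ip ranged from -10.08 to 4.99, reversed without microglia IL-5 replicate 2. In PBS mice they were 134 to 831 and 349 to 1197 genes, 0 to 4 members higher, 0 to 9 lower and a median of -0.16 to 0.083. In IL-5 mice they were 101 to 1028 and 284 to 1181 genes, 0 to 10 members higher and 0 to 9 lower. Where a group kept 1 library, it was assumed to vary like the others. The log2 ratios of the catalytic pairs kept their sign, at 1.14 to 1.37, 0.72 to 1.03 and 1.28 to 1.75. Each of the 9 calls of a member between T cells and microglia was lost in at least 2 alternatives. Precision was limited by the 2 libraries per group. For Psma8 and Psmc3ip replicates disagreed, with 291 and 0 counts of Psma8 in microglia PBS and 0 and 235 of Psmc3ip in microglia IL-5. Psmb11 had 0 counts throughout.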
